A study of Mus musculus with 30 samples.

Results

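The comparison set microvessels of the cerebellum beside microvessels of the cerebrum in wild-type mice. Its members were the 6 arrays labelled WT, 3 per region, of 30 arrays in the series, and the regions were paired by the replicate number in the labels. The mice were 2 months old, of strain C57/B6/J and of genotype Notch3+/+, with no other allele or agent named. Pairs 1 and 2 came from females and pair 3 from a male. The labels call the arrays biological replicates and do not say whether arrays of the same number came from 1 animal. Each array held amplified RNA of brain microvascular fragments, pieces of small vessels isolated from the tissue with the cells attached to them.

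Brain capillaries are tubes of endothelial cells joined by tight junctions, wrapped by pericytes, and touched on the outside by astrocyte end-feet. Larger vessels add smooth muscle and a sleeve of perivascular fibroblasts that continues into the meninges. The mural cells of different brain regions can descend from different embryonic sources, and the glia and neurons around the vessels differ by region. The choroid plexus, a vascular tuft that secretes cerebrospinal fluid, lies in the ventricles of the forebrain and of the hindbrain.

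Signals are log2 values, so that a difference of 1 log2 unit is a 2-fold change. Each probe set has a lowest value of its own, and a gene within 0.02 log2 units of it on all 3 arrays of a region is described as at background there, where a difference has no measured size. Of 18194 genes on the array, 11243 were above 4 log2 units on at least 3 of the 30 arrays and were tested, 1 probe set per gene. The test was limma with the pair as a block, and a gene was called at a Benjamini-Hochberg adjusted p under 0.05. The number of arrays limits the precision. The p-values measure the spread of the region difference over the 3 pairs, moderated by a prior that limma takes from all genes tested.

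All 6 arrays resembled one another closely, with correlations from 0.9772 to 0.9946 over the genes tested. Cerebrum 3 had the lowest mean correlation with the others, 0.9835, against 0.9881 to 0.99. Xist, transcribed from the inactive X chromosome, was at 11.97 to 12.13 on the 4 arrays labelled female and at 2.45 and 2.36 on the 2 labelled male, so the sex labels held. Markers of the vessel wall were bright in both regions: Cldn5, an endothelial tight junction protein, was at 14.99 to 15.15, Rgs5, a mural cell regulator of G protein signalling, at 14.56 to 14.78, and Acta2, smooth muscle actin, at 15.11 to 15.36. Transcripts of other cells were present as well. The choroid plexus product Ttr was at 15.36 to 15.47, the microglial receptor Cx3cr1 at 12.16 to 13.23 and the myelin gene Mbp at 10.97 to 12.30, whereas the astrocyte filament gene Gfap was at 2.36 to 3.04 and haemoglobin Hba-a1 at 2.17 on every array.

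Microvessels of the cerebellum and the cerebrum differed in 135 of the 11243 genes (1.2%). Of these, 111 were higher in the cerebellum (0.987% of genes tested) and 24 were lower (0.213%). The higher set held genes of rapid transcriptional response (Cxcl2, Fosb, Socs3, Egr1), of cerebellar glia and granule neurons (Gria4, A2m, Gabra6), of fibroblasts and matrix (Lum, Dcn, Lamb1), of pericytes (Kcnj8, Abcc9) and of motile cilia (Ak7). The lower set held microglial genes (Fcrls, Gpr34, Cd33), a neuronal gene (Nrn1), a sulfotransferase (Chst2) and a secreted protein of the Dickkopf family (Dkk3). Of 24 pan-endothelial genes 0 were called, a count near the share over all genes, and 23 were slightly negative. The smallest called fold was 1.46 and the median 2.18, and 80 genes differed at least 2-fold. All 135 had the same sign in the 3 pairs, and for 129 the 3 cerebellar arrays did not overlap the 3 cerebral ones. Choosing genes by a small p favours both traits, and the share of all genes without overlap was not counted. Over all genes tested, 17.8% were positive and 27.5% negative in all 3 pairs, and 60.5% had a negative difference. For 8 of the 135 (Cacna1g, Cyp46a1, Dpt, Hoxb3, Ncan, Rab36, St8sia1 and Usp43) the filter was passed only through the wild-type region where they were high, so that they had to differ and their p-values carry no weight.

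The count rests on 2 residual degrees of freedom per gene, with the prior of the model added, and it moved with the fit. Adjusted p ran only from 0.028 to 0.050 over the calls, while 2359 genes had an unadjusted p under 0.05. Without the block limma called 238 genes (2.12%), 200 higher (1.78%) and 38 lower (0.338%), of which 94 were among the 135. With any pair left out it called 0, at 1530 to 1711 unadjusted p under 0.05. The median difference of all genes was -0.04, and it was -0.01 after renewed quantile normalization and -0.03 with each array centred on its median. For 30 of the called genes 39 further probe sets were detected, that is above 4 log2 units on at least 3 wild-type arrays. Of these 39, 38 differed in the same direction as the one used. Further probe sets of called genes that were not detected, such as those of Cldn1 and Gria4, were left out of this count. The 1 detected probe set with the opposite direction belonged to Fzd3.

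**Figure D1:**
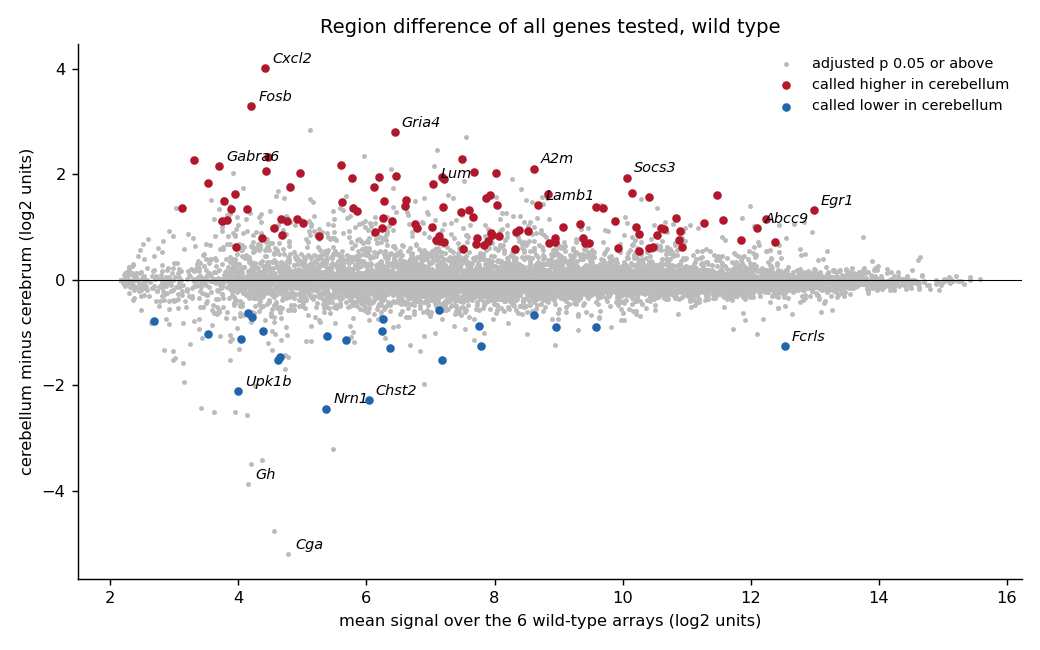
Cerebellum minus cerebrum (log2 units) against the mean signal over the 6 wild-type arrays (log2 units) for the 11243 genes tested, with 1 point per gene. The 111 called higher in the cerebellum are red and the 24 called lower are blue. Differences are narrowest at the bright end, and the pituitary genes Gh and Cga lie far below 0 without being called.

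Rapid-response genes gave the 2 largest fitted differences among the calls. Cxcl2, a neutrophil-attracting chemokine, read 2.22, 2.78 and 2.22 in cerebrum 1, 2 and 3 and 6.52, 6.32 and 6.43 in cerebellum 1, 2 and 3. It was near the low end of the scale in the cerebrum, with the same lowest value on 2 arrays, and above 6 on each cerebellar array. The fitted difference was 4.01 ± 0.18 log2 units (SE, 3 pairs, limma adjusted p = 0.028). Fosb, a subunit of the AP-1 transcription factor, read 2.41, 2.41 and 2.85 in cerebrum and 6.08, 5.43 and 6.04 in cerebellum, a fitted difference of 3.30 ± 0.15 (limma adjusted p = 0.028). The regions did not overlap for either gene, and with background values on 2 of 3 cerebral arrays neither size was fully measured.

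Brighter genes of the same kind differed less. Socs3, a feedback inhibitor of cytokine signalling, read 8.72, 9.28 and 9.32 in cerebrum and 10.95, 10.95 and 11.22 in cerebellum, 3.83-fold higher (1.94 ± 0.13, limma adjusted p = 0.034). Egr1, an early growth response transcription factor, went from 12.14, 12.26 and 12.57 to 13.66, 13.54 and 13.74, 2.50-fold (1.32 ± 0.09, limma adjusted p = 0.034). Every cerebellar array lay above every cerebral array for both. Hspa1a, an inducible heat shock protein, read 11.46, 11.15 and 10.39 in cerebrum and 12.55, 12.31 and 11.54 in cerebellum. Its pairs differed by nearly the same amount (1.13 ± 0.05, limma adjusted p = 0.028) although the pairs themselves stood at different levels, so the call was lost without the block (adjusted p = 0.22).

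Over all genes 0.987% were called higher and 0.213% lower, the shares to set beside the list counts given here and below. Of 29 tested genes on a list of tissue dissociation and immediate early genes, 8 were called higher in the cerebellum, 1 lower and 20 were not called. The list's median difference was 0.54 against -0.04 over all genes. Beside Fosb, Socs3, Egr1 and Hspa1a the higher ones were Junb (1.64), Atf3 (0.96), Ier2 (0.75) and Btg2 (0.71), each a gene switched on quickly by stress or growth signals. Fos itself, the most widely used of these genes, read 13.08, 13.44 and 13.52 in cerebrum and 14.20, 14.08 and 14.20 in cerebellum, which did not overlap but did not pass (0.81 ± 0.12, limma adjusted p = 0.077). Egr3, of the same family as Egr1, was lower in the cerebellum, with 9.56, 8.65 and 10.03 in cerebrum against 8.70, 7.82 and 9.03. Its regions overlapped and the call holds only pair by pair (-0.90 ± 0.06, limma adjusted p = 0.037, and 0.40 without the block). Klf2, Klf4, Hspb1 and Dnajb1 of the list lay within 0.2 log2 units of 0. Atf3 (adjusted p = 0.076) and Btg2 (0.059) also missed the threshold without the block.

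Further called genes of this kind were chosen after their values were seen. They were Nfkbid and Nfkbiz, nuclear regulators of NF-kappaB (2.07 ± 0.11 and 1.38 ± 0.12), Cxcl1, a chemokine like Cxcl2 (1.60 ± 0.11), Ppp1r15a, a stress-induced phosphatase subunit (1.57 ± 0.08), and Ptgs2, the inducible cyclooxygenase (0.90 ± 0.07). Nfkbid read 3.29, 3.22 and 3.70 in cerebrum and 5.41, 5.03 and 5.96 in cerebellum. Ccl3, a chemokine of microglia and macrophages, read 4.92, 3.60 and 5.83 against 7.05, 6.67 and 7.70 and did not pass (2.35 ± 0.26, limma adjusted p = 0.059). Without the block Cxcl1 (adjusted p = 0.10) and Ptgs2 (0.16) were not called. The list names dissociation as well as early response, and how long the tissue of either region was handled is not given in the sources used here. The part of handling in the difference was not tested.

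**Figure D2:**
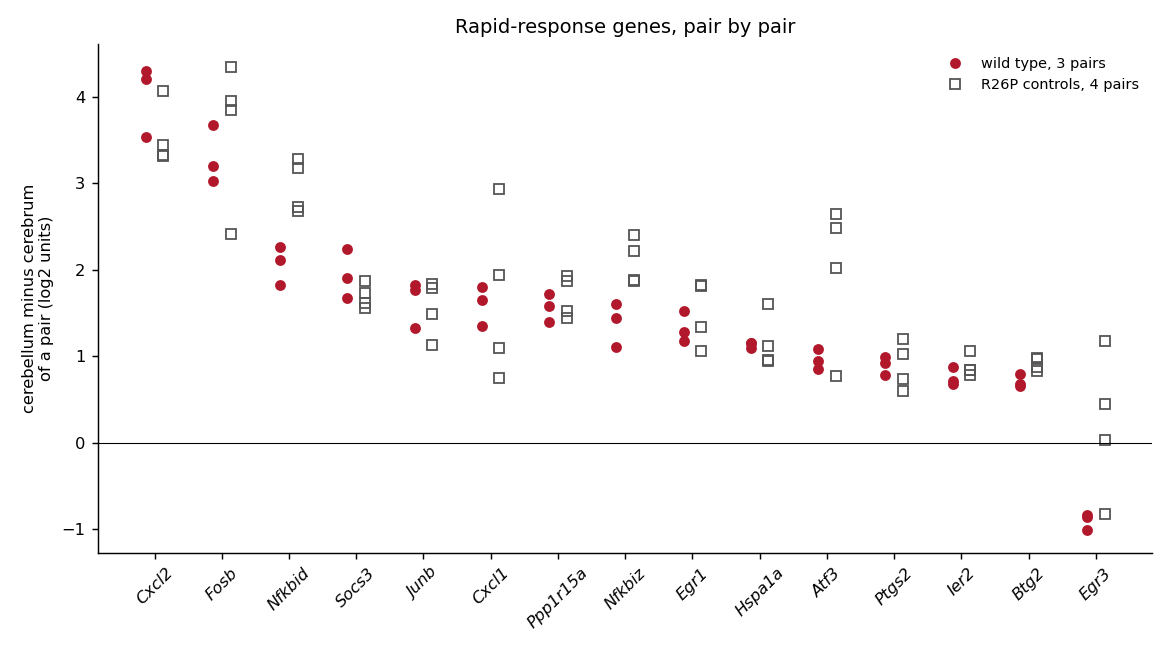
Cerebellum minus cerebrum of each pair (log2 units) for 15 rapid-response genes called in wild type, in the 3 wild-type pairs (red circles) and the 4 pairs of R26P controls (open squares), with no summary drawn. All 3 wild-type points lie above 0 for 14 genes and below 0 for Egr3, whose R26P control pairs lie on both sides of 0.

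Promoters of some of these genes are shown because the genes moved together. RefSeq promoter sequences (build GRCm38.p6) were matched by symbol for 11 of the 14 genes called higher (not Egr1, Ier2 or Nfkbiz), with 13 start sites, and the 250 bases before each start were searched on both strands. The NF-kappaB motif, searched by its degenerate consensus, was in 5 of 13 windows (Cxcl1, Cxcl2, Fosb, Hspa1a and Nfkbid), against 7.25% of all 32851 windows. The cyclic AMP response element TGACGTCA was in 3 of 13 (Btg2, Nfkbid and Ppp1r15a), against 1.55%. The serum response element, known as the CArG box, was in 0 of 13, against 1.47%. These are matches of letters and not binding sites, and no test was made of the shares. Of the 14 genes 8 came from the list. The other 6, among them Cxcl1, Cxcl2, Nfkbid and Ppp1r15a, were added after their values were seen. The shares depend on that choice and do not show that the motifs are more common among rapid-response genes. In the 200 bases before the start, printed in the direction of transcription, capitals mark the NF-kappaB match of Cxcl2 (97 bases before the start) and Cxcl1 (71 bases) and the cyclic AMP element of Ppp1r15a (12 bases) and Btg2 (166 bases).
Cxcl2, chr5:90903699-90903898, + strand: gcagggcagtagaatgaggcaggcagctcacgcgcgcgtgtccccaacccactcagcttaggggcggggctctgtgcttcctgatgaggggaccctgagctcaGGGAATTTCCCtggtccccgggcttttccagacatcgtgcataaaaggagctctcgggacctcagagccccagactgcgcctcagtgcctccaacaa
Cxcl1, chr5:90891045-90891244, + strand: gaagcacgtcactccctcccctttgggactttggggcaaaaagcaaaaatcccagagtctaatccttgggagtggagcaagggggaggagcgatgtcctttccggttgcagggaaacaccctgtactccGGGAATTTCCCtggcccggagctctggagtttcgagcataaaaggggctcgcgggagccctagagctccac
Ppp1r15a, chr7:45526269-45526468, - strand: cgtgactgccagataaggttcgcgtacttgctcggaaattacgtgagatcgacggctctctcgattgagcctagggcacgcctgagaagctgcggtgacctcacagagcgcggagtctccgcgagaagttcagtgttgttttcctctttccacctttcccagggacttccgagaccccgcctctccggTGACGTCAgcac
Btg2, chr1:134079156-134079355, - strand: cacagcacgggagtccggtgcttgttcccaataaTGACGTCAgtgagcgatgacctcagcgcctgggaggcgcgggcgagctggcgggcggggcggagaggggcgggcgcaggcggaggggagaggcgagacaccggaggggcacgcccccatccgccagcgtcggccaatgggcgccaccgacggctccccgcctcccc
The matches of Cxcl2 and Cxcl1, neighbouring genes on chromosome 5, have the same 11 letters, GGGAATTTCCC.

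Genes of cerebellar neurons and glia were next. Gabra6, a GABA-A receptor subunit made by granule neurons of the cerebellum, was at background in cerebrum (2.62, 2.60 and 2.62) and at 4.65, 4.68 and 4.98 in cerebellum (limma adjusted p = 0.028). Gria4, an AMPA receptor subunit of Bergmann glia and granule neurons, was at background in cerebrum (5.04 on all 3) and at 8.23, 7.58 and 7.71 in cerebellum (adjusted p = 0.029). Both were thus above background on each cerebellar array and on no cerebral one. A2m, which encodes alpha-2-macroglobulin, read 8.09, 7.37 and 7.21 in cerebrum and 9.65, 9.66 and 9.68 in cerebellum, with far less spread in the cerebellum, and was 4.31-fold higher (2.11 ± 0.21, limma adjusted p = 0.049).

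Of 12 tested granule neuron genes 1 was called higher and 0 lower (median 0.40), of 8 Purkinje cell genes 0 were called (median -0.10), and of 13 genes of Bergmann glia and cerebellar astrocytes 2 were called higher (median 0.68). The shares over all genes were 0.987% higher and 0.213% lower. The granule median rests on dim genes, and was -0.01 over the members whose mean was above 6. Neurod1, a granule neuron transcription factor, read 2.79, 3.42 and 2.79 against 4.92, 4.25 and 4.43 and did not pass (limma adjusted p = 0.095). Among the Bergmann list, Hopx read 10.22, 10.02 and 10.21 against 10.83, 11.05 and 11.01 and Gdf10 3.10, 3.29 and 3.29 against 4.76, 3.82 and 4.33; neither passed (adjusted p = 0.061 and 0.13). The glutamate transporter Slc1a3, which Bergmann glia make in large amounts, went the other way, with 8.56, 8.97 and 9.53 in cerebrum and 8.42, 7.85 and 7.72 in cerebellum (-1.02 ± 0.35, adjusted p = 0.22). A bulk signal cannot tell fewer cells of a type from less RNA per cell, here or in any comparison that follows.

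Of 25 astrocyte genes 1 was called, higher in the cerebellum (median 0.16). Aldh1l1, an astrocyte folate enzyme, read 5.89, 5.99 and 5.71 in cerebrum and 7.17, 7.54 and 7.40 in cerebellum, 2.84-fold higher (1.50 ± 0.10, limma adjusted p = 0.034). Aqp4, the water channel of astrocyte end-feet, read 7.75, 7.86 and 8.48 against 9.75, 9.34 and 9.33; the regions did not overlap, yet it did not pass (1.44 ± 0.24, adjusted p = 0.086). Slc1a2, the forebrain's main glutamate transporter, was lower on each cerebellar array, 12.01, 11.74 and 11.75 against 12.31, 12.37 and 13.03, without passing (-0.74 ± 0.21, adjusted p = 0.19). Of 11 genes common to neurons Uchl1, a ubiquitin hydrolase, was called (0.58 ± 0.05, adjusted p = 0.047, and 0.058 without the block; list median -0.02). Of 8 forebrain neuron genes 0 were called (median 0.03). Of 8 oligodendrocyte genes 0 were called (median -0.11), and of 6 precursor genes 1 was, Pdgfra, which fibroblasts share (median 0.37).

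Other neuronal genes among the largest differences were Psd2 (4.51 ± 0.10 SD in cerebrum, 6.68 ± 0.15 in cerebellum, n = 3), an exchange factor for ARF proteins, and Lgi1, a secreted synaptic protein (6.11, 6.11 and 6.42 against 7.96, 8.27 and 8.25). They differed by 2.17 ± 0.07 and 1.95 ± 0.09 (limma adjusted p = 0.028 for both). Syt9, a synaptotagmin, differed by 1.94 ± 0.17, Slc6a15, a neutral amino acid carrier, by 1.93 ± 0.14, and Esrrg, an orphan nuclear receptor, by 1.96 ± 0.16. Cacna1g, a T-type calcium channel abundant in Purkinje cells, read 3.84, 3.97 and 3.97 against 5.41, 5.77 and 5.90 (1.76 ± 0.09). In the opposite direction Nrn1, a neuritin of forebrain neurons, read 6.77, 6.59 and 6.41 in cerebrum and was at background, 4.15, on the 3 cerebellar arrays (adjusted p = 0.028). Ncan, a brain proteoglycan chosen after its values were seen, read 5.11, 5.65 and 5.40 and was likewise at background in cerebellum (3.86 on all 3). Chst2, a sulfotransferase, read 6.89, 7.06 and 7.57 against 4.80, 5.19 and 4.68 (-2.29 ± 0.23, adjusted p = 0.049).

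**Figure D3:**
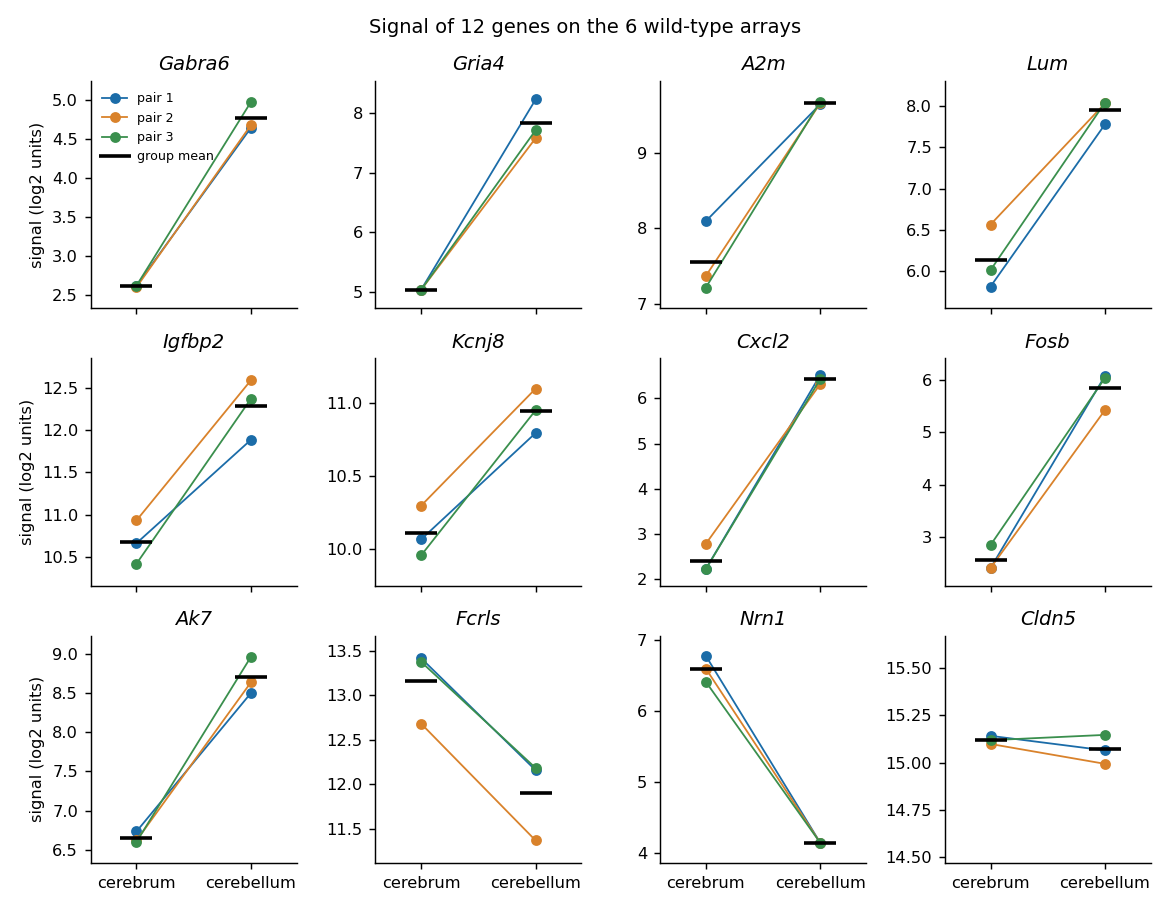
Signal (log2 units, axes cut to each gene's range) of 12 genes on the 6 wild-type arrays, with a line joining the 2 regions of each pair and black bars for group means. The lines run upward in every pair for 9 genes and downward in every pair for Fcrls and Nrn1, while Cldn5 stays between 14.99 and 15.15.

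Genes that mark position along the neural axis were mostly dim. Of 7 tested midbrain and hindbrain patterning genes 0 were called (median 0.39), and of 5 forebrain patterning genes 1 was, Dmrta2, lower in the cerebellum at the low end of the scale (2.95, 3.21 and 3.05 against 2.17, 2.35 and 2.35, adjusted p = 0.040). Otx2, a forebrain and choroid plexus factor, was higher on each cerebellar array (9.02, 9.18 and 8.64 against 9.91, 10.68 and 10.52) without passing (adjusted p = 0.076). Zic1, a transcription factor of cerebellar progenitors that brain pericytes also make, read 11.44, 11.44 and 11.04 against 11.79, 11.79 and 11.61 (0.42 ± 0.07, adjusted p = 0.090). Of 3 Hox genes tested 1 was called: Hoxb3 was at background in cerebrum (3.65) and at 4.26, 4.32 and 4.21 in cerebellum, the region through which alone it was tested, with a list median of 0.00. Hoxa5 did not differ beyond its spread (-0.12 ± 0.16). En2, Hoxb5 and Lhx2 were too low to be tested, at 2.17 to 2.57 on all arrays.

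Transcription factors of mesenchyme and neural crest were called in both directions, 2 higher and 1 lower of 26 (median -0.02). Among all genes the shares were 0.987% higher and 0.213% lower. Ebf2 was higher in the cerebellum (2.78, 2.26 and 2.26 against 4.00, 3.63 and 3.75, 1.36 ± 0.08, limma adjusted p = 0.029). It had the same lowest value on 2 cerebral arrays and was above 4 on no wild-type array, so its size was not fully measured. Foxs1, a forkhead factor of pericytes and sensory ganglia, was also higher in the cerebellum (6.15, 5.91 and 6.62 against 7.08, 7.16 and 7.62, adjusted p = 0.042, and 0.096 without the block). Tfap2a, a neural crest factor that meninges also make, read 6.40, 6.33 and 6.01 in cerebrum and was at background in cerebellum (5.11 on all 3, adjusted p = 0.044). Alx1, a craniofacial mesenchyme factor seen among the lowest values of the list, read 4.28, 6.01 and 4.34 against 2.37 on the 3 cerebellar arrays and did not pass (adjusted p = 0.082). Foxf2, a factor of brain pericytes, differed by -0.24 ± 0.07 (adjusted p = 0.18).

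Pericyte genes were higher in the cerebellum as a list, by amounts that varied between genes. Of 27 tested 4 were called higher and 0 lower, against 0.987% and 0.213% of all genes. Of the list 22 were positive in all 3 pairs against 17.8% of all genes, and the median was 0.43. The mean signal over the list was 10.17 to 10.38 on the cerebral arrays and 10.60 to 10.79 on the cerebellar ones. Abcc9 and Kcnj8 encode the 2 subunits of the pericyte ATP-sensitive potassium channel. Abcc9 read 11.70, 11.65 and 11.50 in cerebrum and 12.55, 12.77 and 12.46 in cerebellum (0.97 ± 0.07, limma adjusted p = 0.040), and Kcnj8 10.07, 10.30 and 9.96 against 10.80, 11.10 and 10.95 (0.84 ± 0.08, adjusted p = 0.044). Both subunits were thus nearly 2-fold higher with no overlap.

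Lama2, a chain of the laminin in the outer basement membrane, read 8.83, 8.97 and 8.60 against 9.88, 10.10 and 9.63, 2.10-fold higher (adjusted p = 0.029). Higd1b, a mitochondrial protein of pericytes, was 1.51-fold higher (9.57, 9.77 and 9.54 against 10.17, 10.31 and 10.20, adjusted p = 0.047). Pdgfrb, the receptor through which PDGF-B holds pericytes to the vessel, read 12.62, 12.68 and 12.37 against 12.92, 13.15 and 12.99, positive in each pair without passing (0.46 ± 0.08, adjusted p = 0.096). Its ligand gene Pdgfb, made by endothelium, read 11.90, 11.71 and 11.99 against 11.62, 11.56 and 11.56 (-0.29 ± 0.08, adjusted p = 0.17). Cspg4, Atp13a5 and Notch3 were positive as well (0.68, 0.66 and 0.50; adjusted p = 0.067, 0.059 and 0.10). Rgs5, the brightest pericyte gene, differed by 0.09 ± 0.06. Its other probe sets, all dimmer, differed by 0.12, 0.42 and 0.51, so the size depends on the probe set.

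Smooth muscle genes moved less. Of 27 tested 1 was called, Casq2, a calcium store protein, with 10.45, 10.57 and 10.47 against 11.18, 11.33 and 11.27 (0.76 ± 0.05, limma adjusted p = 0.035). The list median was 0.21, and Acta2 differed by 0.07 ± 0.07. The mean list signals overlapped, at 9.96 to 10.33 in cerebrum and 10.18 to 10.54 in cerebellum.

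Fibroblast genes of the perivascular sleeve and meninges were called in both directions, 5 higher and 1 lower of 27 (median 0.24). The shares of all genes were 0.987% higher and 0.213% lower. Lum, the matrix proteoglycan lumican, read 5.81, 6.56 and 6.01 in cerebrum and 7.78, 8.03 and 8.04 in cerebellum, 3.53-fold higher (1.82 ± 0.14, limma adjusted p = 0.039). Igfbp2, a binding protein for insulin-like growth factors, read 10.66, 10.93 and 10.42 against 11.89, 12.60 and 12.38 (1.62 ± 0.16, adjusted p = 0.049), and the proteoglycan Dcn 10.24, 10.46 and 10.03 against 11.64, 11.55 and 11.05 (1.18 ± 0.10, adjusted p = 0.042). None of the 3 overlapped between regions. Pdgfra, the PDGF receptor of fibroblasts and oligodendrocyte precursors, differed by 1.00 ± 0.06 (adjusted p = 0.033, and 0.10 without the block). Dpt, the matrix protein dermatopontin, was at background in cerebrum (2.17) and at 4.93, 4.01 and 4.42 in cerebellum, the region through which alone it was tested. Col6a3, a collagen VI chain, was lower in the cerebellum, 3.81, 3.57 and 3.05 against 4.69, 4.81 and 4.29 (-1.12 ± 0.10, adjusted p = 0.044, and 0.090 without the block). The defining collagen gene Col1a1 was too low to be tested, at 2.38 to 2.84.

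Among 41 basement membrane and matrix genes 2 were called higher, Lama2 and Lamb1, against 0.987% of all genes (median 0.12). Lamb1, a laminin beta chain, read 8.00, 8.06 and 7.87 against 9.34, 9.51 and 9.33, 2.67-fold higher with no overlap (1.42 ± 0.06, limma adjusted p = 0.028). Outside that list, Itgb8, an integrin subunit that astrocytes use to activate TGF-beta, was 2.55-fold higher (9.04, 9.13 and 8.87 against 10.14, 10.48 and 10.48, adjusted p = 0.042). Col4a4, a collagen IV chain, was 2.59-fold higher (adjusted p = 0.044, and 0.080 without the block). Both were chosen after their values were seen.

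Choroid plexus and ependymal genes leaned to the cerebellum as a whole list. All 17 tested were positive in all 3 pairs, against 17.8% of all genes, with a median of 1.10. Of the list 2 passed, Clic6 and Ak7, against 0.987% of all genes called higher. The mean signal over the list was 9.99, 10.08 and 9.63 in cerebrum 1, 2 and 3 and 10.73, 11.25 and 11.10 in cerebellum, with no overlap. Clic6, a chloride channel protein of choroid epithelium, read 11.78, 11.72 and 11.49 against 12.66, 12.98 and 12.82 (1.16 ± 0.11, limma adjusted p = 0.048). Kcne2, Slc4a5 and Kl, a potassium channel subunit, a bicarbonate carrier and the ageing-related hormone co-receptor klotho, were higher by 1.54, 1.92 and 1.35 and did not pass (adjusted p = 0.059, 0.059 and 0.12). Without the block 7 of the 17 were called. Ttr, the main secreted product, was near the top of the scale in both regions (0.06 ± 0.05). These genes moved with the region beside every vessel gene described here, and their part in those differences was not tested.

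Ak7, an adenylate kinase of motile cilia, read 6.73, 6.62 and 6.60 in cerebrum and 8.50, 8.64 and 8.96 in cerebellum, 4.13-fold higher (2.05 ± 0.13, limma adjusted p = 0.034). Other called genes with roles in cilia, chosen after their values were seen, were also higher. They were Cfap126 (1.28), Nme5 (1.17), Cfap69 (1.12), Wdr78 (1.00), Drc3 (0.91), Tmem107 (0.62) and Dpcd (0.54). Cfap69 and Tmem107 missed the threshold without the block (adjusted p = 0.080 and 0.070). Motile cilia line the ependyma of the ventricles. Eno4, a sperm-type enolase, also chosen after values were seen, read 3.74, 3.07 and 3.07 against 5.56, 5.55 and 5.74.

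Further genes named for the size of their difference had no place on a list. Abca4, a retinoid flippase, read 6.30, 6.44 and 6.30 in cerebrum and 8.41, 9.05 and 8.45 in cerebellum, 4.89-fold higher (2.29 ± 0.13, limma adjusted p = 0.029). Emb, the adhesion protein embigin, differed by 2.02 ± 0.15 within pairs that stood at different levels (5.95, 8.21 and 6.88 against 8.32, 9.90 and 8.89, adjusted p = 0.039, and 0.23 without the block). Serpinb1b, a protease inhibitor, was 3.78-fold higher (adjusted p = 0.045), and Gpd1, the glycerol phosphate dehydrogenase, 2.47-fold (5.19, 5.27 and 5.15 against 6.53, 6.47 and 6.53, adjusted p = 0.029). Agtr1a, the angiotensin II receptor, was lower, at 5.49, 5.37 and 5.29 in cerebrum and at background in cerebellum (3.92, 3.91 and 3.90, adjusted p = 0.028). Upk1b, a uroplakin chosen after its values were seen, differed by -2.11 ± 0.06 (5.53, 4.76 and 4.88 against 3.44, 2.69 and 2.69, adjusted p = 0.028).

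Endothelial and barrier genes lay close to 0. Of 24 pan-endothelial genes 0 were called, 23 were negative against 60.5% of all genes, 14 were negative in all 3 pairs against 27.5%, and the median was -0.13. Pecam1, the endothelial adhesion molecule CD31, read 9.61, 9.77 and 9.92 against 9.62, 9.66 and 9.72, and Cldn5 15.14, 15.10 and 15.12 against 15.06, 14.99 and 15.15. The regions overlapped for both. Of 24 arterial genes 0 were called (median -0.04), and of 19 capillary and venous genes 0 (median -0.19). Of 40 barrier carriers and receptors 0 were called (median -0.08). The glucose carrier Slc2a1 differed by -0.13 ± 0.05, the efflux pump Abcb1a by -0.04 ± 0.06 and the organic anion carrier Slco1a4 by 0.00 ± 0.06 (adjusted p = 0.28, 0.70 and 1.0).

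Of 24 junction genes 1 was called, Cldn1, a claudin of choroid plexus and meningeal barrier cells rather than of brain endothelium. It read 7.06, 7.36 and 6.88 against 8.24, 8.99 and 8.71, 2.92-fold higher (1.55 ± 0.15, limma adjusted p = 0.048; list median -0.06). Of 36 genes of the Wnt and norrin signals that maintain the barrier 1 was called, Dkk3, a secreted protein of the Dickkopf family. It was lower in the cerebellum, 5.81, 5.66 and 5.82 against 6.84, 6.57 and 6.80 (-0.97 ± 0.06, adjusted p = 0.032; list median -0.10). Of 21 Notch genes 0 were called (median 0.04), and Notch1 differed by 0.04 ± 0.09.

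Lists of growth factor, retinoid and hormone signalling had few calls and medians slightly below 0. The calls were all higher in the cerebellum, as were 111 of the 135 over all genes. Of 38 BMP and TGF-beta genes 2 were higher, against 0.987% of all genes (median -0.06): Bmp7, a ligand of meninges and choroid plexus, read 3.30, 3.30 and 3.02 against 4.60, 4.90 and 4.15 (adjusted p = 0.042), and Bmp6, of the same ligand family, 8.23, 8.92 and 8.46 against 9.03, 9.60 and 9.39 (0.80 ± 0.07, adjusted p = 0.044, and 0.17 without the block). Of 28 genes of VEGF, angiopoietin and apelin signalling 2 were higher (median -0.01), Pdgfra and Pgf, placental growth factor (0.78 ± 0.06, adjusted p = 0.042, and 0.10 without the block). Of 24 genes of retinoid, thyroid and steroid signalling 1 was higher (median -0.04). This was Cyp26b1, the enzyme that clears retinoic acid, with 5.75, 5.75 and 5.09 against 7.23, 6.97 and 6.89 (1.50 ± 0.13, adjusted p = 0.042).

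Of 35 guidance genes 0 were called (median 0.00), though Sema3b and Slit2, 2 secreted guidance cues singled out for their values, stood apart. Sema3b read 6.13, 6.31 and 5.20 against 7.92, 8.73 and 8.34 and Slit2 7.77, 7.86 and 7.04 against 9.12, 9.43 and 9.26 (limma adjusted p = 0.059 for both). Of 46 respiratory chain genes 0 were called (median 0.04), and of 16 cell division genes 0 (median -0.09). Of 6 blood cell genes 0 were called (median -0.31).

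Genes of microglia and macrophages leaned to the cerebrum as a list, with members in both directions. Of 24 tested 1 was called lower and 1 higher, against 0.213% and 0.987% of all genes. Of the list 16 were negative in all 3 pairs against 27.5% of all genes, and the median was -0.40. The 6 with a positive difference were Cd74 (0.69), H2-Aa (0.48), Lyz2 (0.16), Mrc1 (0.15), Pf4 (0.12) and Cd163 (0.04). Fcrls, an Fc receptor-like protein of microglia, read 13.42, 12.68 and 13.38 in cerebrum and 12.16, 11.37 and 12.18 in cerebellum, 2.39-fold lower (-1.26 ± 0.06, limma adjusted p = 0.028, and 0.12 without the block). Further microglial genes, named for lying near the threshold, did not pass. Siglech read 9.58, 9.19 and 9.90 against 8.32, 8.24 and 8.39, P2ry13 12.33, 11.89 and 12.36 against 11.23, 11.17 and 11.36, and P2ry12 12.66, 12.37 and 12.80 against 11.38, 11.67 and 11.70 (adjusted p = 0.050, 0.050 and 0.066). The regions did not overlap for any of the 3.

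Gpr34, a lysophospholipid receptor of microglia, differed by -0.89 ± 0.08 (10.13, 10.08 and 9.86 against 9.15, 9.10 and 9.15, adjusted p = 0.044), and Cd33, a sialic acid receptor, by -0.88 ± 0.07 (adjusted p = 0.042, and 0.18 without the block). Sting1, a sensor of cytosolic DNA signals, differed by -0.68 ± 0.06, Ada, adenosine deaminase, by -0.75 ± 0.06, and Bank1, a B cell scaffold protein, by -1.26 ± 0.10. Without the block Ada kept its call and Sting1 and Bank1 did not (adjusted p = 0.19 and 0.15). General leukocyte genes moved less: Ptprc, the common leukocyte antigen, read 10.24, 9.69 and 10.55 against 10.04, 9.93 and 10.20, and Coro1a 9.62, 9.19 and 9.96 against 9.28, 9.25 and 9.61, with overlap in both. Cd74, the invariant chain of class II antigen presentation, was the call in the other direction (8.69, 9.25 and 9.47 against 9.40, 10.01 and 10.08, 0.69 ± 0.06, adjusted p = 0.043, and 0.29 without the block). It was also the 1 called of 33 interferon and antigen presentation genes (median -0.08).

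Some pituitary genes were high on 1 or 2 of the 3 cerebral arrays only. Pomc of the same list was bright in both regions, with means of 10.4 in cerebrum and 9.6 in cerebellum (-0.76, limma adjusted p = 0.55). Gh, growth hormone, was at 13.93 on cerebrum 3 and at 2.17 to 2.30 on the other 5 arrays, and Prl, prolactin, was at 9.38 on cerebrum 3 and at 2.20 to 2.29 elsewhere. Cga, the shared subunit of pituitary glycoprotein hormones, read 2.17, 8.25 and 11.73 in cerebrum and 2.17 on the 3 cerebellar arrays. Chga, a secretory granule protein, read 2.98, 8.66 and 9.17 in cerebrum and 2.17 in cerebellum. Cga and Chga were chosen after their values were seen. Of 11 tested genes of the list 0 were called, with a median of -1.33 and a mean list signal of 3.52 to 8.13 in cerebrum against 3.64 to 3.74 in cerebellum. Dlk1, a Notch ligand homologue placed on that list, ran the other way (3.18, 3.15 and 4.77 against 6.29, 6.60 and 6.73, 2.84 ± 0.33, limma adjusted p = 0.059).

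**Figure D4:**
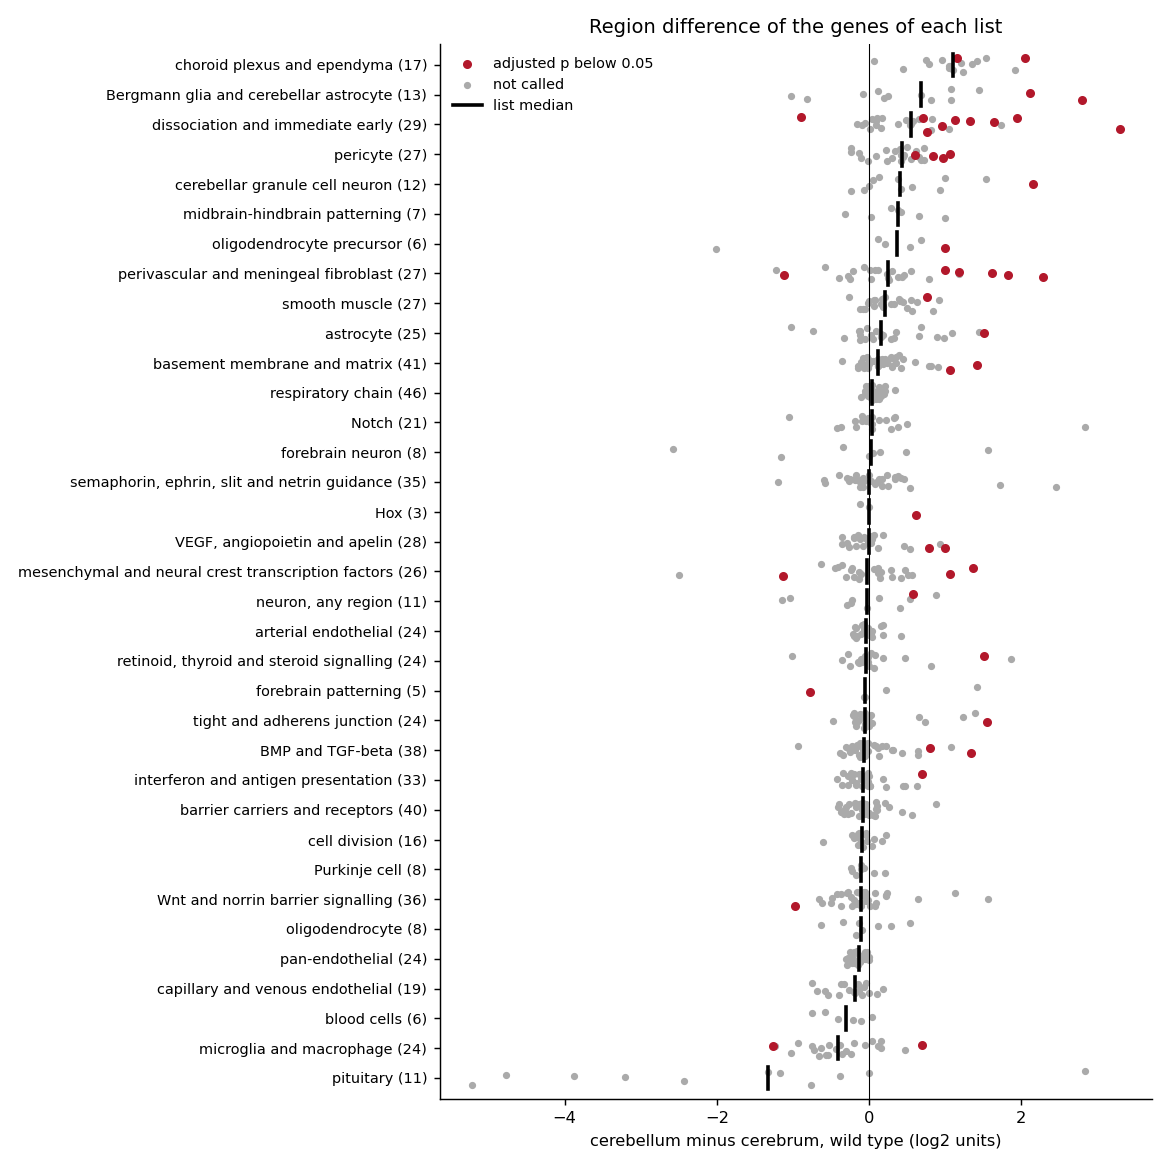
Cerebellum minus cerebrum (log2 units) of each tested gene in 35 gene lists in the 6 wild-type arrays, sorted by the list median (black bar), with called genes in red and the number of genes tested in brackets. The choroid plexus and ependyma list has the highest median, 1.10, the pan-endothelial list lies close to 0 at -0.13, and the pituitary list has the lowest, -1.33, with 0 called genes.

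A second set of untreated regions gave the same comparison in other mice. The R26P controls carry the R26P transgene on 1 allele (R26P+/0) with pdgfb+/+, on a mixed C57/SV129 background, with 4 arrays per region paired by number; their age is given as 1 year in the titles and as 2 months in another field. They share no array with wild type. Separate normalization of the 2 sets was inferred from the lowest values of the arrays, so differences between regions were compared and not levels. Strain, age, transgene and any normalization batch cannot be told apart between the sets.

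In R26P controls limma called 475 of 11243 genes (4.22%), 349 higher in the cerebellum (3.1%) and 126 lower (1.12%). How many of the 475 passed the filter only through the R26P control region where they were high was not counted. Of the 135 genes called in wild type, 132 had the same sign in R26P controls, and 70 were called the same way, which is 51.9% of the wild-type calls and 14.7% of the R26P control calls. In opposite directions 0 were called. Cyp26b1 (-0.13), Cyp11a1 (0.16), a steroid synthesis enzyme, and Egr3 (0.20) were the 3 with the other sign in R26P controls. The share of all genes with the same sign in both sets was not counted. The filter used all 30 arrays, and Ebf2 and Dmrta2 passed it without any wild-type array above 4.

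Differences of named genes measured in both regions are given side by side. Lamb1 differed by 1.42 in wild type and 1.48 in R26P controls, Lama2 by 1.07 and 1.06, and Abcc9 by 0.97 and 0.93. A2m differed by 2.11 and 2.05, Socs3 by 1.94 and 1.69, and Egr1 by 1.32 and 1.50. Other named genes were further apart. Fcrls differed by -1.26 and -2.13, Dkk3 by -0.97 and -1.63, Kcnj8 by 0.84 and 1.31, and Atf3 by 0.96 and 1.98, and none of these gaps was called. The genes printed are a selection and do not show how closely the sizes matched over all calls. Gabra6 in cerebrum and Nrn1 in cerebellum were at background in both sets of mice, at 2.16 and 2.26 on all 4 R26P control arrays of that region, so that their direction was the same and their size was not measured. Of the pericyte list 20 of 27 were called higher in R26P controls against 4 in wild type, with medians of 0.69 and 0.43. The dissociation and immediate early list had 16 called higher against 8 (medians 0.68 and 0.54), and the choroid plexus and ependyma list 5 against 2 (medians 1.38 and 1.10). The share of all genes called was also larger in R26P controls, with 1 pair more, so these counts do not show that the lists differ between the sets.

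The difference between the sets was tested itself. Of 11243 genes 4 were called (0.0356%), 3 with a more positive difference in wild type (0.0267%) and 1 with a more negative one (0.00889%). Cacna1g read 2.26 to 2.34 on the R26P control arrays of both regions, Dpt 2.16 to 2.58, and Gpd1 4.27 to 4.28 on all but 1 of them (3.92). These are values at or close to background, so that the region difference of the 3 genes was not measured in R26P controls. Agtr1a read 4.31 to 4.73 in R26P control cerebrum and 4.26 to 4.36 in cerebellum, and was at background in wild-type cerebellum. The fitted gaps, wild type minus R26P controls, were 1.74 for Cacna1g, 2.08 for Dpt, 1.21 for Gpd1 and -1.31 for Agtr1a (limma adjusted p = 0.0029, 0.038, 0.037 and 0.037). None of the 4 has a measured size, and Cacna1g and Dpt were tested only through the wild-type cerebellum where they were high.

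**Figure D5:**
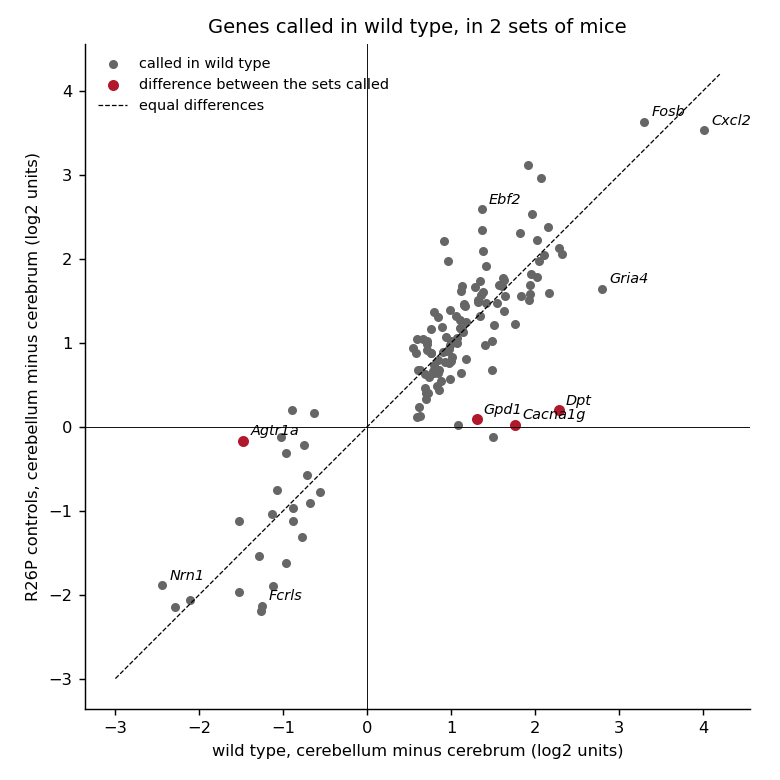
Region difference in R26P controls (4 pairs) against that in wild type (3 pairs), both as cerebellum minus cerebrum in log2 units, for the 135 genes called in wild type, with a dashed line of equal differences. Of the 135 points 132 have the same sign on both axes (the share over all genes was not counted). The 4 genes whose difference between the sets was called are red.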

How the data were processed

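Affymetrix mouse arrays measured the RNA. Per the labels' protocols, RNeasy columns and DNase gave total RNA, of which about 100 ng was amplified and labelled with biotin. The authors deposited log2 signals, for which the submitters' processing notes name GCRMA 2.6.0 and R 2.4.1. The lowest value is 2.17 on the 6 wild-type arrays and 2.16 on the other 24, so the 2 sets had been normalized separately. On each wild-type array 32.3% to 32.7% of values equal the lowest. No further scaling was applied. Arrays have no read depth.

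Probe sets paired with exactly 1 gene were kept (34958 of 45101; 932 had several genes and 9211 none), and each gene was represented by the one with the highest mean over the 30 arrays. Genes above 4 on at least 3 arrays were tested with limma 3.58.1 (lmFit and eBayes) in R 4.3.3, two-sided, on the 6 arrays alone, with the replicate number as a block. After removal of group means, same-numbered arrays correlated at 0.344, 0.467 and 0.483 and differently numbered ones at -0.395 to 0.0545; the labels give same-numbered arrays the same sex and age. R26P controls were fitted the same way, and a fit over both sets tested the difference of the region differences. Alternatives changed the block, the filter, the probe set, the scaling and the prior, and left out each pair.

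Named genes are taken from the 12 largest called differences each way without overlap and with a higher mean above 6, the 8 largest each way with both means above 6, up to 4 called members of each of 35 lists (otherwise the 2 brightest), the called differences between the sets, and a short set of region, vessel and sex genes. The text gives a selection. Other genes were chosen after their values were seen, which is stated beside only some of them. They include further called list members, such as Junb and Igfbp2. List members that did not pass, such as Kl and Gdf10, were chosen likewise, some of them for lying close to the threshold. The members and lists were chosen with earlier results of these data known.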

Additional observations from a re-analysis of the deposited data

Results flagged for a closer look

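For 4 genes the region difference differed between wild type and R26P controls by a test of that difference (limma). The gap, wild type minus R26P controls, was 1.74 log2 units for Cacna1g, 2.08 for Dpt, 1.21 for Gpd1 and -1.31 for Agtr1a. These are fitted values with no measured size, since each gene was at or close to background in wild-type cerebellum, wild-type cerebrum or both R26P control regions. With a wild-type or an R26P control pair left out, 1 to 4 genes were called.

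Among the 4 R26P control pairs, 5 of 27 genes examined had 1 pair far from the others. Chance sets apart about 1 in 20 such groups. Pair 1 had the largest difference of A2m (3.49 log2 units), of Ak7 (2.46) and of Clic6 (2.76), and the smallest of Tfap2a (-0.77) in size. Pair 2 stood apart for Gpd1 (0.35).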

How the results depend on the processing

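None of the 79 named genes called in wild type changed sign under any alternative that gave it a value. Among the 1880 values of single genes in wild type under the alternatives, 1376 kept their side of the threshold, 377 were no longer called and 127 became called. The 135 calls between wild-type regions became 238 without the replicate block, 360 with the filter set on the 6 wild-type arrays alone, 594 among genes with a mean above 6, 315 after renewed quantile normalization, 502 with each array centred on its median, 787 with an intensity trend and a robust prior, and 307 in 1 fit with R26P controls. They became 0 with no expression filter (2372 genes at an unadjusted p under 0.05) and 0 with any pair left out. The pairing, which the labels and the correlations bear on, kept 57 of the 79 named called genes when it was dropped. The 475 calls in R26P controls became 132 without the replicate block, 0 with no expression filter (2381 unadjusted), 758 among genes with a mean above 6, 888 with the trend, and 37 to 159 with a pair left out. The 4 genes that differed between the sets became 11 with no expression filter (1 of the 4 among them), 2 among genes with a mean above 6 (0 of the 4), 11 with the trend (all 4), and 1 to 4 with a pair left out. The cause of these changes was not tested. Few arrays and the low end of the scale, where background values have no size, limit what these data resolve.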
